A study of Populus yunnanensis and Populus davidiana with 24 samples.

Results

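The genes described here are 8 transcription factor genes of poplar that stand at the top of the programme for wood formation: 4 NAC genes (WND1A, WND1B, WND2A and WND2B) and 4 MYB genes (MYB002, MYB021, MYB003 and MYB020). They were chosen by identifier and not by a rule on their values, though earlier results of these data were known. No file used here pairs these names with the identifiers. All 8 were found among the 43836 identifiers of the expression table. RNA was sequenced from the stems of cuttings of Populus davidiana and Populus yunnanensis, made from year-old shoots without buds or leaves. Stems of each species were sampled at 0, 48, 96 and 120 h, with 3 replicates each, which gave 8 groups and 24 libraries. No further treatment, plant age or genotype beyond the species is given in the labels. The series title concerns rooting and WOX genes, not wood.

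WND stands for wood-associated NAC domain. In Populus trichocarpa, as with their counterparts SND1 and NST in Arabidopsis, these NAC proteins switch on the making of thick secondary cell walls in the fibres and vessels of xylem. They act through a second layer of MYB proteins, the counterparts of Arabidopsis MYB46 and MYB83, to which the 4 MYB genes belong. Both layers bind the promoters of genes for cellulose, xylan and lignin synthesis. The members come in pairs of duplicates: WND1A with WND1B, WND2A with WND2B, MYB002 with MYB021, and MYB003 with MYB020. Their identifiers place them on chromosome 11 (WND1A, Potri.011G153300.v3.1), chromosome 1 (WND1B, Potri.001G448400.v3.1), chromosome 14 (WND2A, Potri.014G104800.v3.1) and chromosome 2 (WND2B, Potri.002G178700.v3.1). MYB002 (Potri.001G258700.v3.1) and MYB003 (Potri.001G267300.v3.1) carry the number of chromosome 1, and MYB021 (Potri.009G053900.v3.1) and MYB020 (Potri.009G061500.v3.1) that of chromosome 9. Duplicates are alike in sequence, so fragments may have been split between the genes of a pair.

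Levels are in FPKM, fragments scaled to gene length and to the mapped fragments of the library. After scaling by the relative depth of each library, 70 of 70 values of up to 20 steps lay within 0.1 of a whole multiple of 1 step per gene. The step was fitted to the same values, so this is a description. It is read below as 1 fragment, though it could stand for more than 1, and fragment numbers and limits carry this doubt. Relative depth, set against P. yunnanensis 96 h replicate 1, averaged 0.730 ± 0.0662 in P. davidiana and 0.948 ± 0.0871 in P. yunnanensis (SD, n = 12 each). One library stood apart for these genes, P. yunnanensis 0 h replicate 3. Across tested genes the 3 libraries of its group correlated at 0.869 to 0.897, and replicates in the other groups at 0.933 to 0.983. The lowest value in its group, 0.869, was for the pair without replicate 3, and the pairs with it gave 0.891 and 0.897. By this measure the whole group was loose, and replicate 3 was not its odd library. Test results that rest on this library are given with and without it.

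WND1A reached 1 FPKM in 18 of 24 libraries and WND1B in 8. Outside P. yunnanensis 0 h replicate 3, the other 6 members stayed below 1 FPKM in every library. Of the 8 members, 7 had their highest value in P. yunnanensis 0 h replicate 3. Of all 33568 identifiers above 0 in any library, 7.24% had their highest value there, and 11.5% had it in P. yunnanensis 120 h replicate 1, the largest share of any library. For 6 members that value was at least 2 times the second highest of the 24 libraries, which held for 1.86% of identifiers. The 4 NAC genes together had 1178 fragments in that library and 1275 in the other 23. The 4 MYB genes had 64 fragments there and 59 in the other 23, with each step of MYB020 taken as 1 fragment. In bulk stems, fewer cells of a type and less RNA per cell cannot be told apart. The table pairs no identifiers with names, so the stem label was not checked against xylem, phloem or cambium markers.

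**Figure D1:**
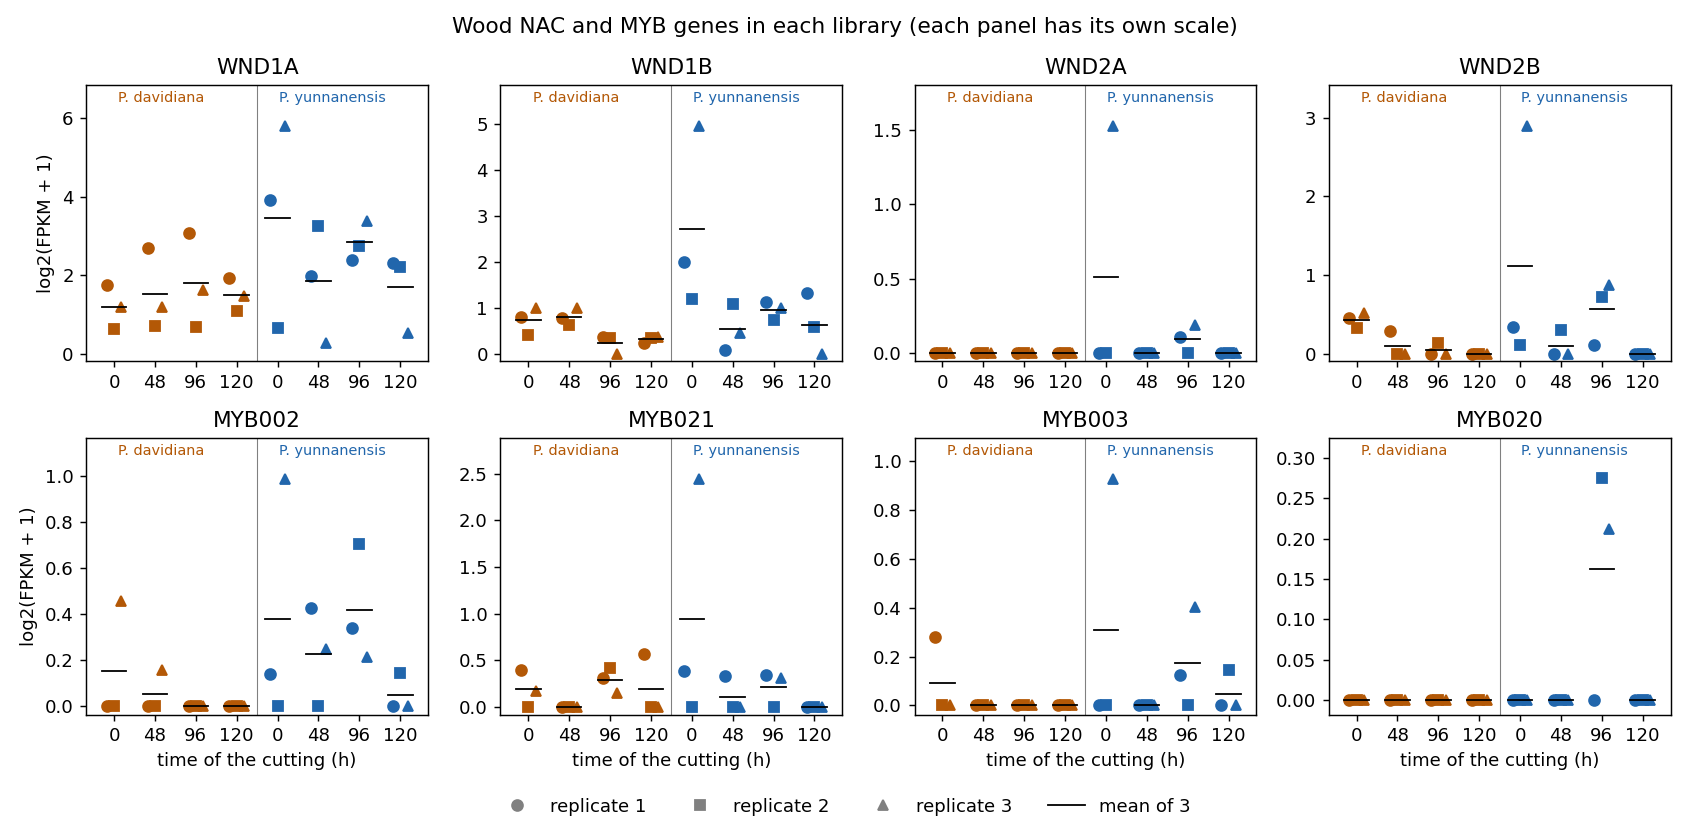
Levels of the 8 genes as log2(FPKM + 1) (vertical axis, a separate scale per panel) against time in h, P. davidiana left and P. yunnanensis right. Symbols are the 3 replicates and bars their mean. The triangle of P. yunnanensis at 0 h is the highest point in every panel except that of MYB020.

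WND1A was the one member above 0 in all 24 libraries. In P. davidiana it stood at 2.40, 0.556 and 1.28 FPKM at 0 h, at 5.52, 0.651 and 1.27 FPKM at 48 h, at 7.40, 0.618 and 2.09 FPKM at 96 h, and at 2.82, 1.12 and 1.80 FPKM at 120 h (replicates 1, 2 and 3). Replicate 1 held the highest and replicate 2 the lowest value at 4 of 4 times, and the values of all times overlapped. The P. yunnanensis levels were 14.1, 0.572 and 54.3 FPKM at 0 h, at 2.99, 8.60 and 0.220 FPKM at 48 h, at 4.28, 5.72 and 9.36 FPKM at 96 h, and at 4.0, 3.61 and 0.462 FPKM at 120 h. The fresh stems of P. yunnanensis thus held both a value under 1 FPKM and the highest of all. By group mean the order ran P. yunnanensis 0 h, 96 h and 48 h, P. davidiana 96 h, P. yunnanensis 120 h, then P. davidiana 48 h, 120 h and 0 h, and every neighbouring pair in it overlapped.

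WND1A passed the test in 0 of 13 comparisons (limma, Benjamini-Hochberg adjusted p under 0.05 over 24643 tested genes). At an unadjusted p under 0.05 it passed in 1, the species comparison at 0 h. There it averaged 1.41 ± 0.929 FPKM in P. davidiana and 23 ± 28 FPKM in P. yunnanensis (SD, n = 3 each). On the log2(FPKM + 1) scale this was -2.26 (SE 1.03, limma adjusted p = 0.104). Without P. yunnanensis 0 h replicate 2, its low library, the difference was -3.66 (limma adjusted p = 0.009). Without replicate 3 it was -1.09 (limma adjusted p = 0.581, the ends of the range over all alternatives). In P. yunnanensis at 120 h against 0 h the log2 change was -1.76 (SE 1.04, limma adjusted p = 0.229, range over its alternatives 0.0377 to 0.787). It passed only without 0 h replicate 2, with a change of -3.16 (limma adjusted p = 0.0377), and was -0.59 without 0 h replicate 3 (limma adjusted p = 0.787). At 96 h against 0 h it was -0.61 (SE 1.03, limma adjusted p = 0.732), and 0.56 once 0 h replicate 3 was left out. For P. davidiana, 120 h against 0 h gave 0.30 (SE 0.71, limma adjusted p = 0.832).

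WND1B was mostly lower than its duplicate. In P. davidiana it stood at 0.752, 0.337 and 0.993 FPKM at 0 h, at 0.723, 0.547 and 1.01 FPKM at 48 h, at 0.287, 0.267 and 0 FPKM at 96 h, and at 0.190, 0.282 and 0.288 FPKM at 120 h. In these stems all 6 values at 96 and 120 h lay below those at 0 and 48 h, as 3.03% of tested genes did. This pattern was picked out after the values were seen, and WND1B passed neither limma test against 0 h nor that at 120 h against 48 h. The P. yunnanensis levels were 2.97, 1.30 and 29.9 FPKM at 0 h, at 0.0690, 1.13 and 0.371 FPKM at 48 h, at 1.19, 0.670 and 1.01 FPKM at 96 h, and at 1.51, 0.497 and 0 FPKM at 120 h. The 0 h values lay above all those at 48 and 96 h and overlapped those at 120 h. By group mean P. yunnanensis 0 h came first and did not overlap the next, P. yunnanensis 96 h. Every later neighbouring pair, in the order P. davidiana 48 h and 0 h, P. yunnanensis 120 h and 48 h, P. davidiana 120 h and 96 h, overlapped. Gene level FPKM does not separate the transcript forms known for WND1B in P. trichocarpa, where an intron-retaining form gives a protein that blocks the others.

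WND1B fell in P. yunnanensis stems at each later time against 0 h. It averaged 0.523 ± 0.546 FPKM at 48 h, 0.954 ± 0.262 FPKM at 96 h and 0.667 ± 0.767 FPKM at 120 h, against 11.4 ± 16.1 FPKM at 0 h (SD, n = 3 each). The log2 changes were -2.17 at 48 h (SE 0.59, limma adjusted p = 0.0349), -1.76 at 96 h (SE 0.55, limma adjusted p = 0.0378) and -2.08 at 120 h (SE 0.56, limma adjusted p = 0.0136). They share the 0 h libraries. Of all tested genes, 5.59%, 14.9% and 22.1% were called at these times, 2.52%, 3.57% and 5.35% as lower, and the median over all tested genes was 0.10, 0.33 and 0.34. At 48 h 8.51% and at 96 h 7.41% of tested genes were lower without overlap, as WND1B was. All 3 calls ended when 0 h replicate 3 was left out. Without it the changes were -1.05 at 48 h, -0.64 at 96 h and -0.96 at 120 h, with limma adjusted p-values of 0.319, 0.403 and 0.171, the highest over all alternatives. With the replicate number as a block the adjusted p at 48 h was 0.0737.

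In fresh stems WND1B was lower in P. davidiana. It averaged 0.694 ± 0.332 FPKM in P. davidiana and 11.4 ± 16.1 FPKM in P. yunnanensis at 0 h (SD, n = 3 each). The change on the log2(FPKM + 1) scale, P. davidiana minus P. yunnanensis, was -1.97 (SE 0.56, limma adjusted p = 0.0102). The groups did not overlap, which held for 23.4% of tested genes in this direction, and 31.2% of genes were called, 17.2% as lower. Without P. yunnanensis 0 h replicate 3 the difference was -0.85 (limma adjusted p = 0.217, range over its alternatives 0.00107 to 0.217). A difference between the species and unequal alignment of their fragments to 1 set of gene models cannot be told apart. At 96 h the log2 difference was -0.72 (SE 0.39, limma adjusted p = 0.125). It passed with a pseudocount of 0.1 (adjusted p = 0.0363), with the compared groups alone (0.0244) and with the replicate block (0.0444), in a range of 0.0244 to 0.829. The main fit called 53.5% of tested genes in this comparison.

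**Figure D2:**
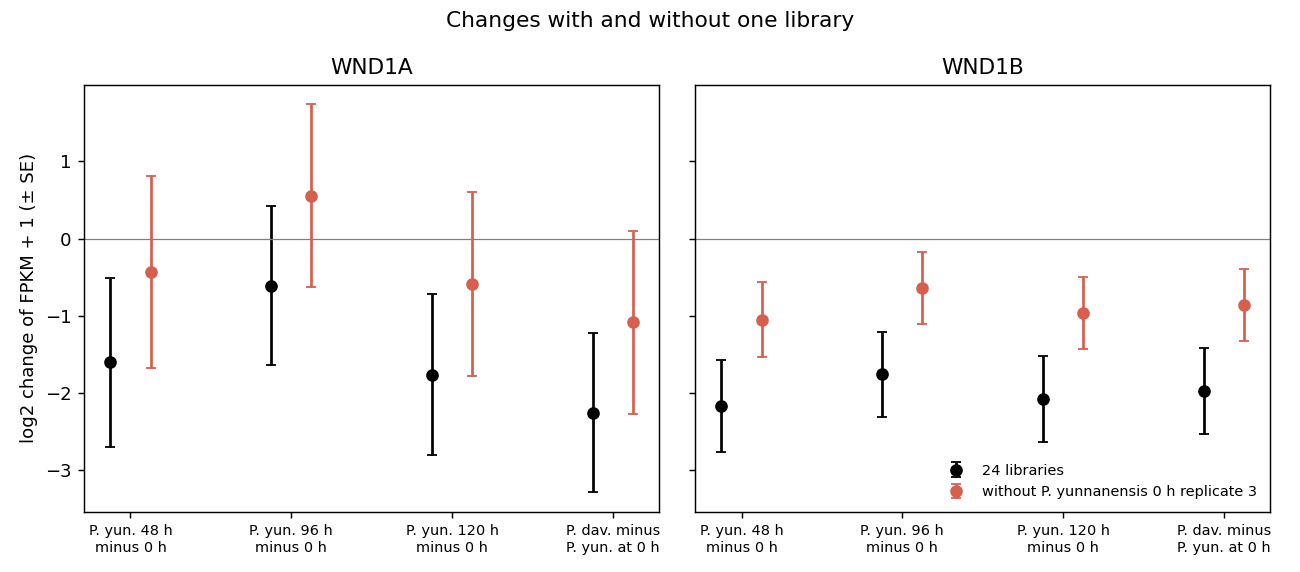
Log2 changes of FPKM + 1 with their SE (vertical axis) for WND1A and WND1B in 4 comparisons, later time minus 0 h or P. davidiana minus P. yunnanensis. Black points use 24 libraries and red points leave out P. yunnanensis 0 h replicate 3, which moves every point towards or above 0.

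Over the 13 comparisons WND1A and WND1B gave 26 tests, of which 4 passed, all of them WND1B lower, and 6 had an unadjusted p under 0.05. In P. davidiana neither gene passed at any time (limma, smallest adjusted p 0.647 for WND1A and 0.418 for WND1B), with 5.13%, 21.9% and 28.6% of tested genes called at 48, 96 and 120 h against 0 h and 11% at 120 h against 48 h. At 120 h against 0 h in P. davidiana WND1B had a log2 change of -0.42 (SE 0.38, limma adjusted p = 0.473). Neither passed in P. yunnanensis at 120 h against 48 h, where 1.54% of genes were called, nor between the species at 48, 96 and 120 h, where 39.1%, 53.5% and 54.6% were. The change by 120 h in P. davidiana minus that in P. yunnanensis was 1.66 for WND1B (SE 0.68, limma adjusted p = 0.112) and 2.07 for WND1A (SE 1.26, limma adjusted p = 0.288), in a comparison that called 11.8% of genes. So the course of WND1B was not shown to differ between the species. Without P. yunnanensis 0 h replicate 2 the WND1B value was 2.42 (limma adjusted p = 0.0256), and without replicate 3 it was 0.54 (limma adjusted p = 0.549, the ends of the range over its alternatives). Without replicate 3 the WND1A value was 0.90 (limma adjusted p = 0.716, range over its alternatives 0.065 to 0.716).

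Between the duplicates, WND1A was the higher per length in 22 of 24 libraries. In P. davidiana it averaged 2.30 FPKM against 0.473 FPKM for WND1B and was higher in 12 of 12 libraries. The mean difference was 0.98 ± 0.85 on the log2(FPKM + 1) scale (SD, n = 12, exact two-sided sign-flip permutation p = 0.000488, adjusted over the 2 species p = 0.000977). P. yunnanensis stems averaged 9.02 FPKM of WND1A against 3.39 FPKM of WND1B, with WND1A higher in 10 of 12 libraries, by 1.25 ± 0.94 (SD, n = 12, exact two-sided sign-flip permutation p = 0.00293, adjusted p = 0.00293). Without 0 h replicate 3 the P. yunnanensis means were 4.90 FPKM of WND1A and 0.973 FPKM of WND1B, and WND1A was higher in 9 of 11 libraries, by 1.28 ± 0.97 (SD, n = 11, exact two-sided sign-flip permutation p = 0.00586). The exceptions were P. yunnanensis 0 h replicate 2 and 48 h replicate 3. These sign-flip tests took the libraries of a species as independent, though they share times and replicate numbers.

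How far the duplicates varied together was read within each species. In P. davidiana log2(FPKM + 1) of WND1A and WND1B had a Pearson r of -0.0446 and a Spearman rho of -0.0629 over 12 libraries (permutation p = 0.890 and 0.852, both adjusted p = 0.890 over 4 values). In P. yunnanensis r was 0.800 and rho 0.678 over 12 libraries (permutation p = 0.00172 and 0.0184, adjusted p = 0.00688 and 0.0368). Without the 2 libraries farthest from the median of WND1A, r was -0.144 in P. davidiana and 0.579 in P. yunnanensis. Leaving out P. yunnanensis 0 h replicate 3 alone gave an r of 0.606 (n = 11, permutation p = 0.0479) and a rho of 0.582 (permutation p = 0.0651). The permutations likewise ignored the times and replicate numbers that libraries share. The difference between the species was not tested.

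**Figure D3:**
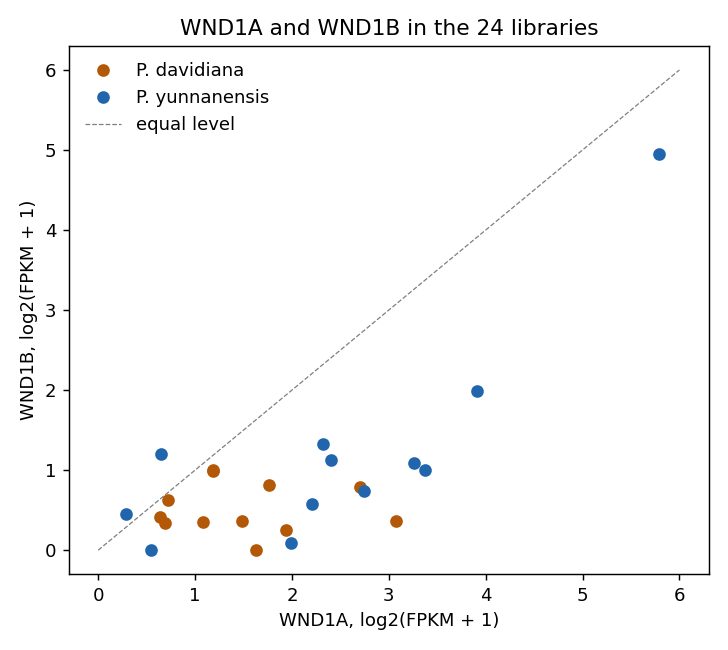
WND1B against WND1A, both as log2(FPKM + 1), 1 point per library. P. davidiana points lie below the line of equal level with WND1B at or under 1.01 FPKM, and the P. yunnanensis point at upper right is 0 h replicate 3.

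WND2A and WND2B, whose proteins act in fibres and vessels of P. trichocarpa, did not reach the level needed for the test (1 FPKM in at least 3 libraries), and neither did the 4 MYB genes. WND2B was above 0 in 5 of 12 P. davidiana and 7 of 12 P. yunnanensis libraries. In P. davidiana it stood at 0.367, 0.253 and 0.436 FPKM at 0 h, in 1 library each at 48 h (0.227 FPKM) and 96 h (0.0980 FPKM), and in none at 120 h. The P. yunnanensis levels were 0.264, 0.0810 and 6.45 FPKM at 0 h, at 0, 0.232 and 0 FPKM at 48 h, at 0.0760, 0.643 and 0.829 FPKM at 96 h, and at 0 in all 3 at 120 h. Outside P. yunnanensis replicate 3, the 0 h values rested on 1 to 4 fragments each. A count of 0 allows a level of up to 0.314 FPKM in P. davidiana and 0.242 FPKM in P. yunnanensis at their mean depths (3 fragments per library, counting error only).

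WND2A was never above its duplicate. It was at 0 in all 12 P. davidiana libraries, which allows up to 0.313 FPKM at their mean depth, and above 0 in 3 P. yunnanensis libraries. These were 0 h replicate 3 with 1.89 FPKM (22 fragments), 96 h replicate 1 with 0.0760 FPKM (1 fragment) and 96 h replicate 3 with 0.138 FPKM (2 fragments). WND2B was the higher of the pair in 5 P. davidiana libraries and in 6 P. yunnanensis libraries.

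The MYB layer was close to the limit of detection in both species. Of 48 values per species, 9 were above 0 in P. davidiana and 19 in P. yunnanensis, or 16 of 44 without 0 h replicate 3. The relative depth of mapped fragments was lower in P. davidiana, and its part in these numbers was not tested. All MYB values together came to 20 fragments in P. davidiana, and to 39 in the 11 P. yunnanensis libraries other than 0 h replicate 3. This and the numbers by time take the 2 steps of MYB020, both in P. yunnanensis at 96 h, as 1 fragment each. By time, the 3 libraries of a group held 9, 1, 6 and 4 fragments at 0, 48, 96 and 120 h in P. davidiana, and 68, 9, 24 and 2 in P. yunnanensis, where 64 of the 68 came from replicate 3.

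MYB021 was the most abundant MYB gene in fresh P. yunnanensis stems. It stood at 0.303, 0 and 4.44 FPKM there (3, 0 and 45 fragments), and its highest value elsewhere was 0.478 FPKM, in P. davidiana 120 h replicate 1. In P. davidiana it was above 0 in 6 of 12 libraries, with 0.315, 0 and 0.125 FPKM at 0 h, 0.241, 0.336 and 0.106 FPKM at 96 h, 0.478 FPKM in 1 library at 120 h and none at 48 h. In P. yunnanensis it was above 0 in 5 of 12, the others being 48 h replicate 1 with 0.259 FPKM and 96 h replicates 1 and 3 with 0.263 and 0.238 FPKM. It was the one MYB gene seen in more P. davidiana than P. yunnanensis libraries.

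MYB002, the duplicate of MYB021, was above 0 in 2 of 12 P. davidiana libraries and 8 of 12 P. yunnanensis libraries. Its P. davidiana values were 0.374 FPKM in 0 h replicate 3 and 0.115 FPKM in 48 h replicate 3. The P. yunnanensis levels were 0.101, 0 and 0.983 FPKM at 0 h, at 0.344, 0 and 0.186 FPKM at 48 h, at 0.262, 0.630 and 0.158 FPKM at 96 h, and at 0, 0.104 and 0 FPKM at 120 h. Of the 7 members that were highest in 0 h replicate 3, MYB002 exceeded its second highest library by the least, 1.56 times, against 13.7 times for WND2A.

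MYB003 and MYB020 had the fewest steps of the 8 genes, 17 and 2 over all 24 libraries. MYB003 was at 0.213 FPKM in P. davidiana 0 h replicate 1 and at 0 in the other 11 P. davidiana libraries. In P. yunnanensis it was at 0.901 FPKM (9 fragments) in 0 h replicate 3, at 0.0890 and 0.322 FPKM in 96 h replicates 1 and 3, and at 0.106 FPKM in 120 h replicate 2. MYB020 was above 0 in 2 libraries of the series, P. yunnanensis 96 h replicates 2 and 3, with 0.210 and 0.158 FPKM, read as 1 step each. It was the one member at 0 in P. yunnanensis 0 h replicate 3. Its step was fitted to these values alone and was 1.96 times that of MYB003. A step of 1 fragment and a step of more cannot be told apart here, so no limit is given for its zeros.

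With no filter on low values all 8 members entered the fit, and the species comparison at 96 h then gave 2 calls, both MYB genes, while 39.9% of all identifiers above 0 were called. MYB002 had a log2 difference, P. davidiana minus P. yunnanensis, of -0.42 (limma adjusted p = 0.0264) and MYB020 one of -0.16 (limma adjusted p = 0.00587). The MYB020 call set 3 zeros against 1 step in each of 2 libraries. Of the 3 P. yunnanensis values of MYB002, those of replicates 1 and 3 lay below the 0.359 FPKM that a 0 allows in P. davidiana at its mean depth.

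**Figure D4:**
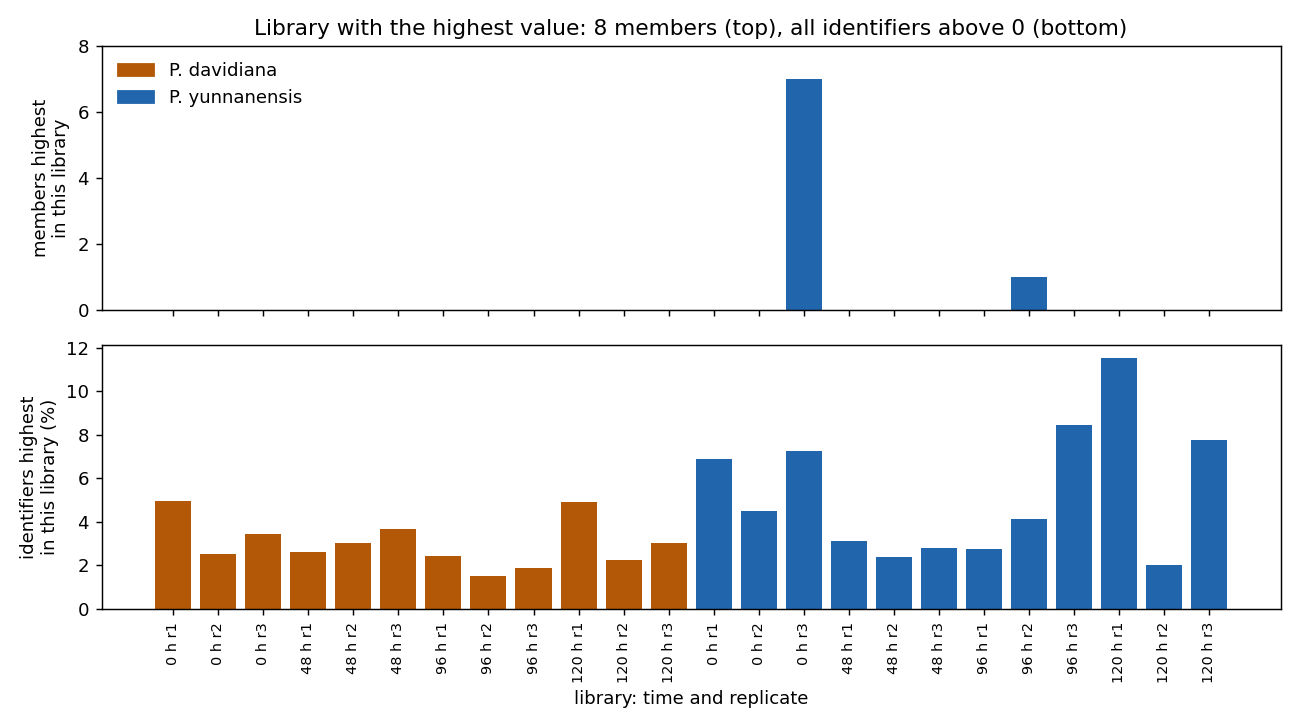
Number of the 8 members (top, 0 to 8) and percent of all identifiers above 0 (bottom) that had their highest value in each library, P. davidiana left and P. yunnanensis right. Of the members, 7 fall on P. yunnanensis 0 h replicate 3, which held 7.24% of identifiers, and 1 on 96 h replicate 2, while P. yunnanensis 120 h replicate 1 held the most identifiers, 11.5%.

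The genes most like the mean profile of WND1A and WND1B over the 24 libraries, among 18624 others with a group mean of at least 5 FPKM, were Potri.001G375700.v3.1 (Pearson r = 0.918), Potri.003G114100.v3.1 (0.901) and Potri.016G112000.v3.1 (0.895). The libraries share species and times, and the files give these genes no name. Potri.001G375700.v3.1 stood at 5.66, 0.399 and 18.3 FPKM in P. yunnanensis at 0 h and at no more than 2.15 FPKM in the other 21 libraries. Without 0 h replicate 3 the correlations were 0.783, 0.708 and 0.677. Each of the 3 reached a group mean of 5 FPKM through P. yunnanensis 0 h alone, the group where WND1A and WND1B were highest, so the filter itself favoured genes high there. No such profile was made for the MYB genes, none of which passed the filter.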

How the data were processed

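The authors deposited 1 table of FPKM values per gene and library, per the file headers; no aligner, counter or genome build is named in the sources used here. Library names in the column headers matched the labels. The members and gene lists were chosen with earlier results of these data known. All 8 members are named with their values; the genes most like them are the 3 with the highest Pearson r with the mean standardised profile of the tested NAC members.

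Tests ran in limma 3.58.1 (R 4.3.3) on log2(FPKM + 1) of every gene that reached 1 FPKM in 3 or more libraries, with 1 mean per species and time over all 24 libraries (16 residual degrees of freedom), a variance trend and the spread weighted by group, since earlier results had shown unequal spread. Fold changes on this scale understate changes of low genes. Benjamini-Hochberg adjustment ran over all tested genes in each of 13 comparisons, threshold 0.05. The fit was tested on simulated data. The simulation drew normal noise and placed changes only in genes of higher mean level than WND1B. It therefore does not bear on the WND1B calls, which rest on 1 extreme library. The labels do not say that replicates are separate plants, so p-values measure only the spread of these samples, possibly technical.

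Relative depth was the most frequent ratio of low FPKM values between libraries; the step of each gene was read after its values were seen (Python 3.11.15, numpy 2.4.6, pandas 2.3.3, scipy 1.17.1, matplotlib 3.10.9). A limit for a 0 is 3 steps. Correlations and duplicates were tested by permutation (100000 resamples, or all sign patterns), tests added after the data were seen, as was the fit of the duplicates without P. yunnanensis 0 h replicate 3. Alternatives were a pseudocount of 0.1, no filter, median ratio scaling, quantile normalization, a filter of 5 FPKM, an unweighted spread, the compared groups alone, a replicate block and each replicate left out.

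Same-numbered replicates deviated together (all 3 correlations above 0.1) in 1 of 12 comparisons, P. davidiana at 48 h against 0 h, where the block changed no call of a member. Over the time comparisons of P. davidiana, replicate 1 gave 0.0877 to 0.297, replicate 2 0.171 to 0.289 and replicate 3 -0.0362 to 0.256. Shared deviation was thus seen in replicates 1 and 2 of P. davidiana. In P. yunnanensis the values ran from -0.41 to 0.33. Lists of other wall genes had been prepared by identifier, but no table used here pairs identifiers with names, so they are not used here. The names of the 8 members could not be checked for the same reason.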

Additional observations from a re-analysis of the deposited data

How the results depend on the processing

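WND1B was called as lower 4 times. The count of members called in these comparisons (1 each) was 0 with a filter of 5 FPKM, which leaves WND1B untested, and 0 with the compared groups alone. With a pseudocount of 0.1 it was 0 in P. yunnanensis at 48 and 96 h against 0 h and between the species at 0 h. With no filter it was 0 in P. yunnanensis at 96 h. With the replicate block it was 0 at 48 h against 0 h, and the block ended no other call. With 1 replicate left out, the count ranged from 0 to 1 in P. yunnanensis at 48 and at 96 h against 0 h, from 0 to 2 at 120 h against 0 h, from 0 to 2 between the species at 0 h, and from 0 to 1 for the species by time comparison, where it was 0. Between the species at 96 h the count was 0, but 1 with a pseudocount of 0.1, 1 with the compared groups alone, 1 with the replicate block and 2 with no filter. The other 7 comparisons gave 0 under each alternative. The log2 change of WND1A in P. yunnanensis at 96 h against 0 h ranged from -2.01 to 0.56 with 1 replicate left out. Median ratio scaling, quantile normalization and the unweighted spread ended no call. In P. yunnanensis the WND1B call at 48 h against 0 h also ended without 48 h replicate 1 (limma adjusted p = 0.0649) or 3 (0.108). That at 96 h ended without 0 h replicate 1 (0.0507) or 96 h replicate 2 (0.104) or 3 (0.0527), and that at 120 h without 120 h replicate 3 (0.0653). The cause was not tested. Outside P. yunnanensis 0 h replicate 3, no value of a MYB gene or WND2A rested on more than 6 fragments.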
